A study of Mus musculus with 81 samples.

Results

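Expression of 10 genes of the endosomal sorting route was examined in excitatory neurons of the mouse hippocampus. The members were chosen by name, 10 of 57010 gene identifiers in the count matrices: the early endosomal GTPases Rab5a, Rab5b and Rab5c, the late endosomal GTPase Rab7, the recycling GTPases Rab4a and Rab11a, the tether Eea1 and the retromer subunits Vps35, Vps26a and Vps26b. All 10 were measured and passed the filter on low counts in every comparison. CA1 pyramidal neurons (PNs), CA3 PNs and dentate gyrus granule cells (DGCs, libraries of the DG) had been cut from Nissl-stained sections by laser capture microdissection, and their RNA was sequenced as 81 libraries from 28 male mice aged about 6 months. Mice were Ts65Dn (Ts) or disomic (2N), and their dams received either a diet with 1.1 g/kg choline chloride (ChN) or one with 5.0 g/kg (ChP) through gestation and nursing, after which all offspring received the control diet. Numbers of libraries were 6 2N ChN, 5 Ts ChN, 7 2N ChP and 9 Ts ChP in CA1, 6, 6, 7 and 7 in CA3, and 6, 6, 7 and 9 in DG.

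In Ts65Dn mice some genes of chromosome 16, the counterparts of genes on human chromosome 21, are present in an extra copy on a small additional chromosome. That chromosome also brings material from near the centromere of chromosome 17 with no such counterparts, so a difference between Ts and 2N can come from either part. Both genotypes share the mixed background of Ts65Dn females crossed to C57Bl/6J Eicher by C3H/HeSnJ F1 males. Cells were cut out in groups rather than 1 by 1, so each library is a bulk sample in which fewer cells of a type and less RNA per cell cannot be told apart. None of the 10 members lies on chromosome 16, and Rab5a lies on chromosome 17 outside its centromeric end.

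Cargo taken in at the plasma membrane enters early endosomes, where Rab5 in its GTP-bound form recruits Eea1, a long coiled-coil protein that tethers vesicles before they fuse. Exchange of Rab5 for Rab7 turns an early endosome into a late one bound for the lysosome. Rab4 marks a fast recycling route back to the surface and Rab11 a slow one through the recycling endosome. Retromer, a trimer of Vps35, Vps29 and either Vps26a or Vps26b, is recruited through Rab7 and returns receptors from endosomes to the Golgi apparatus or the plasma membrane. Enlarged Rab5-positive endosomes in neurons are a known early feature of Down syndrome and of Alzheimer's disease, which is why these genes are of interest in Ts65Dn hippocampus.

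Sequencing depth, as summed expected counts of a library, spanned 358355 to 4744036. At the median total, 1 count was worth 0.933 CPM (counts scaled to the library total after TMM normalisation) in CA1, 0.65 in CA3 and 1.08 in DG, and the members had median counts from 24 (Rab4a) to 187 (Rab7) per library. Dentate granule markers averaged 7.19 to 7.73 log2 CPM in the DG libraries, at most 2.00 in CA1 and at most 1.99 in CA3 outside 1 library, Ts ChP of mouse 15-140, where they averaged 3.95. In 10 of 27 CA1 libraries the markers of the neighbouring CA2 field averaged 5.74 to 7.91 log2 CPM, against 1.64 to 3.23 in the other 17. CA1 markers were lower there, at 2.96 to 7.06 against 7.35 to 7.84, and CA3 markers higher, at 4.50 to 6.97 against 2.21 to 3.62. Inhibitory markers had medians of 5.02 and 4.38, with overlapping ranges. The part of the CA3 and inhibitory markers in the CA1 comparisons below was not tested. These 10 libraries are spread over the 4 CA1 groups, and calls that change without them are given both ways. Over 27 genes of the triplicated segment, the mean was 6.13 to 6.61 log2 CPM in the 42 Ts libraries. It was 5.61 to 5.94 in 38 of the 39 2N libraries and 6.33 in the remaining one, the CA1 library labelled 2N ChN of mouse 17-154. The CA3 library of mouse 15-145 has a Ts label, but CA1 and DG of the same animal have 2N labels. Its mean over these genes was 5.94, and it entered the 2N ChN group. Summed oligodendrocyte markers were higher in CA3 (236 to 485 CPM) than in CA1 (96.0 to 300.2 CPM) or DG (91.7 to 232 CPM). Inhibitory markers averaged 2.67 to 3.91 log2 CPM in DG, 3.83 to 5.37 in CA1 and 3.73 to 4.99 in CA3. Their summed CPM had medians of 226, 219 and 178 in the same order. In CA3 ChN they averaged 4.71 in 2N and 4.05 in Ts, and in DG ChP 3.15 in 2N and 3.65 in Ts. The part of these markers in the population and genotype differences below was not tested.

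In GRCm39 the Rab5 genes lie at chr17:53786241-53815975 (Rab5a), chr10:128512885-128532251 (Rab5b) and chr11:100603932-100629041 (Rab5c), and Rab7 at chr6:87976083-88022295. Rab4a lies at chr8:124532545-124568842, Rab11a at chr9:64581321-64645054 and Eea1 at chr10:95776512-95881387. The retromer genes lie at chr8:85986024-86026431 (Vps35), chr10:62290543-62322703 (Vps26a) and chr9:26915799-26941923 (Vps26b). The values cover the exons of each whole gene. The annotated processed pseudogenes Rab5a-ps and Rab7-ps1 drew 0 and 71 counts over all libraries, against 6376 for Rab5a and 18230 for Rab7.

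RefSeq promoter windows of 300 bases (250 before and 50 after the annotated start, build GRCm38.p6) were available for 8 of the 10 members, 10 windows in all. They were searched on both strands for TCACGTGA, the palindromic core of the CLEAR element bound by TFEB-type factors that switch on lysosomal genes. It was found in 3 of the 10 windows, 1 of Rab5a and both of Vps26a, and in 320 of 32851 promoters (0.974%). The E-box CACGTG, which lies inside this core, was in 7.15% of all promoters and, of the members, in the same 3 windows. The cAMP response element TGACGTCA was in 1.79% and, of the members, in Rab5a. The 88 bases around each core are shown because they set Rab5a and Vps26a apart from the other members searched, with the core in capitals. It begins 96 bases before the annotated start in Rab5a (chr17:53479098-53479185, plus strand), and 183 and 152 bases before the 2 starts of Vps26a (chr10:62486941-62487028 and chr10:62486703-62486790, minus strand). A match of letters is a description and not a bound site.
Rab5a: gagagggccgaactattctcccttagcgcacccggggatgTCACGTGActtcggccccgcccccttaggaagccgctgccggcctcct
Vps26a, first start: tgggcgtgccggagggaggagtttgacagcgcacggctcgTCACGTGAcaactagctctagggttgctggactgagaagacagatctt
Vps26a, second start: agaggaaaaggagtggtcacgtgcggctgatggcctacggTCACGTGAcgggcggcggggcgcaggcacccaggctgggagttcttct

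Per length, Rab7 was the most abundant member in all 3 populations. Its median level was 127 CPM per kb of effective length in CA1, 158 in CA3 and 89.8 in DG, and it ranked first in 24 of 27 CA1, 17 of 26 CA3 and 24 of 28 DG libraries. Rab11a came next at 90.4, 138 and 62.5 CPM per kb, and in CA3 its distance from Rab7 was smaller than the spread between libraries (mean log2 ratio 0.15 ± 0.44 SD, n = 26). Vps35, the scaffold of retromer, stood at 45.1, 52.8 and 31.5 CPM per kb. Rab5c (37.4, 39.3 and 34.0 CPM per kb) and Vps26b (34.4, 30.3 and 37.6) lay below Vps35 in CA1 and CA3 and above it in DG, and Rab5a (34.2, 32.6 and 19.5) lay below it in all 3. In CA1 the neighbours Vps26b and Rab5a did not separate, with Vps26b higher in 14 of 27 libraries. Nor did Rab5c and Vps35 in DG, where Rab5c was higher in 14 of 28 libraries. The lowest 4 levels in each population were those of Rab5b (19.0, 19.1 and 16.7), Rab4a (18.5, 24.2 and 12.8), Vps26a (16.6, 19.7 and 14.6) and Eea1 (15.0, 15.0 and 17.4 CPM per kb). The lowest of all was Eea1 in CA1 and CA3 and Rab4a in DG.

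**Figure D1:**
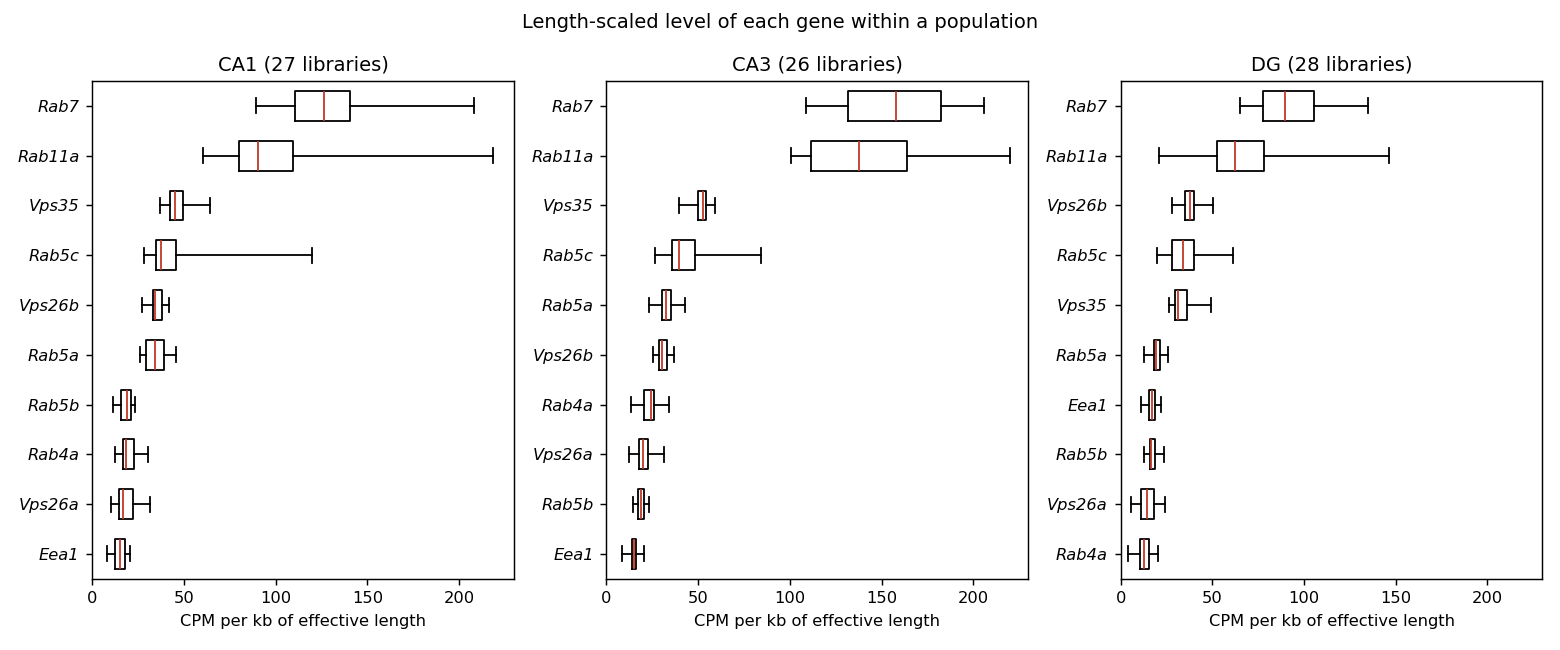
Levels of the 10 members per length (CPM per kb of effective length, x axis) in each library of CA1, CA3 and DG, with members ordered by their median within a population. Rab7 and Rab11a stand above the rest, with medians of 127 and 90.4 CPM per kb in CA1.

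Of the 3 Rab5 paralogs, Rab5c and Rab5a made up most of the pool in CA1 and CA3, while Rab5a lost ground in DG. Rab5a was a median 36.5% of the summed per-length Rab5 level in CA1, 34.9% in CA3 and 29.2% in DG. Rab5c was 42.2%, 43.4% and 46.8%. Rab5a exceeded Rab5b in 27 of 27 CA1 and 26 of 26 CA3 libraries and in 22 of 28 DG libraries. Among the alternative Vps26 subunits, Vps26b was the more abundant, the per-length ratio of Vps26a to Vps26b having a median of 0.432 in CA1, 0.665 in CA3 and 0.388 in DG and passing 1 in 1 of 81 libraries.

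The main difference among these genes was between pyramidal neurons and granule cells. Rab5a, Rab7, Vps35, Rab4a and Rab11a were higher in CA1 and CA3 PNs than in DGCs, and Vps26b was lower in CA3 PNs than in DGCs. With all libraries in the fit no member separated CA1 from CA3 PNs, and without the CA2-rich libraries some did, as given below. Populations were compared within each genotype and diet with edgeR's quasi-likelihood test, and a difference was called at a Benjamini-Hochberg adjusted p under 0.05 over all genes. CA1 versus DG gave 4 of 10 members in 2N ChN (34.3% of all genes tested), 5 in Ts ChN (33.7%), 4 in 2N ChP (31.8%) and 7 in Ts ChP (39.3%). Each of them was higher in CA1, a direction taken by 17.7%, 17.5%, 17% and 20.4% of all genes. CA3 versus DG gave 6 members in 2N ChN (43.7% of all genes), 6 in Ts ChN (44.5%), 6 in 2N ChP (40.4%) and 8 in Ts ChP (44.2%). CA1 versus CA3 gave 0 in each, against 23.3%, 25.3%, 22.9% and 24.5% of all genes. Of the 26 CA3 calls 24 were higher in CA3, 5, 6, 6 and 7 in the order above, against 21.9%, 21.9%, 20.9% and 22.1% of all genes. The median LFC (log2 fold change) of the members for CA3 over DG was 0.41 in 2N ChN, 0.50 in Ts ChN, 0.68 in 2N ChP and 0.49 in Ts ChP, against −0.06 to −0.02 for all genes. The 4 comparisons of a pair are in separate mice, but CA1 and CA3 share the DG libraries.

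**Figure D2:**
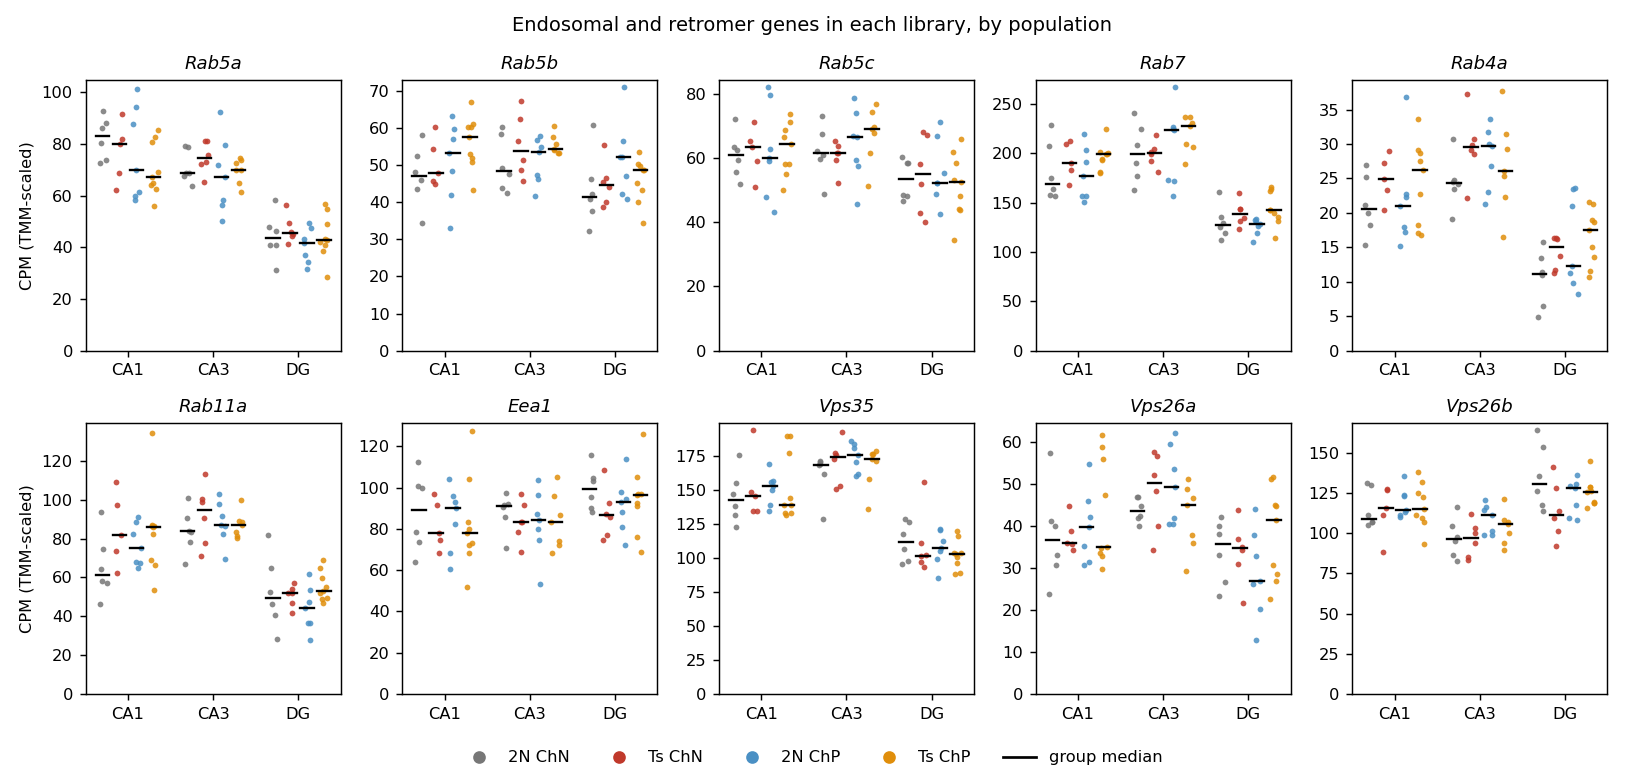
CPM of each member in each library by population (x axis), coloured by genotype and diet, with a line at each group median and the y axis of each panel starting at 0. Rab5a, Rab7 and Vps35 stand higher in CA1 and CA3 than in DG, and the colours overlap within each population.

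Rab5a, the paralog most studied in fusion of early endosomes, showed the clearest step between pyramidal neurons and granule cells on the early side of the route. In 2N ChN its lowest, median and highest CPM were 72.5, 83.2 and 92.5 in CA1, 63.6, 68.6 and 79.0 in CA3, and 31.3, 43.6 and 58.3 in DG. The lowest CA1 and CA3 libraries of this group lay above the highest DG library. Over DG the LFC of CA1 was 0.87 ± 0.14 (SE) in 2N ChN, 0.68 ± 0.13 in Ts ChN, 0.86 ± 0.16 in 2N ChP and 0.63 ± 0.11 in Ts ChP, a 1.55- to 1.83-fold difference. The LFC of CA3 over DG was 0.64 to 0.70 in the 4 groups. Within mice, Rab5a was higher in CA1 than in DG in 26 of 27 and higher in CA3 than in DG in 26 of 26. All 8 differences from DG passed the test.

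Rab5b and Rab5c, which carry out overlapping functions, differed less. In Ts ChP, the largest group, Rab5c had 50.04, 64.3 and 73.8 CPM in CA1, 51.2, 69.0 and 76.7 in CA3 and 34.4, 52.6 and 65.8 in DG, ranges that overlap. Its LFC passed the test in this group only, at 0.28 (adjusted p = 0.047) for CA1 and 0.38 (adjusted p = 0.0076) for CA3 over DG. Rab5b passed there with 0.26 for both CA1 (adjusted p = 0.044) and CA3 (adjusted p = 0.048). With the mouse as a block, the CA1 value of Rab5b had an adjusted p of 0.055. With scaling to library totals none of the 4 values passed (adjusted p = 0.27 to 0.78). Without the CA2-rich libraries the CA1 values were 0.22 for Rab5c (adjusted p = 0.20) and 0.30 for Rab5b (adjusted p = 0.053). In the other 3 groups the LFCs over DG of Rab5b and Rab5c lay from −0.02 to 0.27 and did not pass. Whether the groups differ in this was not tested.

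Eea1, the Rab5 effector among the members, did not follow Rab5a. In 2N ChN it had 63.8, 89.1 and 112 CPM in CA1, 71.0, 91.1 and 97.5 in CA3 and 88.1, 99.4 and 116 in DG. Its LFC over DG was −0.20 to −0.12 in CA1 and −0.21 to −0.09 in CA3, and none of the 8 values passed. Leaving out the CA2-rich libraries brought CA1 past the test in 2N ChN (−0.35, adjusted p = 0.033) and Ts ChP (−0.46, adjusted p = 0.0011). With scaling to library totals in place of TMM, Eea1 passed as lower in CA1 in the same 2 groups and as lower in CA3 in all 4. That scaling shifts the median of all genes to between −0.26 and −0.23 for CA3 over DG and to between −0.17 and −0.12 for CA1 over DG.

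Rab7, which directs the late endosome to the lysosome, was higher in pyramidal neurons in every mouse. In 2N ChN it had 157, 169 and 229 CPM in CA1, 163, 199 and 241 in CA3, and 113, 128 and 160 in DG, so that only the highest DG library reached the CA1 range. The LFC over DG was 0.45 ± 0.12 (SE) in CA1 and 0.60 ± 0.12 in CA3 in this group, and 0.43 to 0.48 and 0.50 to 0.69 across the 4 groups, with all 8 values past the test. It was higher in CA1 than in DG in 27 of 27 mice and higher in CA3 than in DG in 26 of 26.

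The recycling GTPases showed large steps with a wide spread. Rab4a, the least counted member, had 15.3, 20.6 and 27.0 CPM in CA1, 19.1, 24.3 and 30.7 in CA3 and 4.87, 11.2 and 15.7 in DG in 2N ChN, where the DG counts reached only 5 to 21 reads. Only the lowest CA1 library fell within the DG range. Its LFC for CA3 over DG was 1.17 ± 0.23 (SE) in 2N ChN, 1.01 ± 0.18 in Ts ChN, 0.78 ± 0.23 in 2N ChP and 0.67 ± 0.18 in Ts ChP, and all 4 passed. For CA1 over DG it was 0.96, 0.76, 0.40 and 0.54 in the same order, of which 0.40 did not pass (adjusted p = 0.22) and 0.54 did not without the CA2-rich libraries (0.45, adjusted p = 0.092). Rab11a had 66.9, 83.8 and 101 CPM in CA3 and 28.4, 49.4 and 81.6 in DG in 2N ChN, with overlap in the upper part of the DG range. Its LFC over DG was 0.69, 0.86, 0.93 and 0.64 in CA3, all past the test. In CA1 it was 0.33, 0.73, 0.72 and 0.59, with the first not past it (adjusted p = 0.19). Of their close relatives, which are not members, Rab4b was higher over DG by an LFC of 1.26 to 1.46 in CA1 and 1.27 to 1.78 in CA3, and Rab11b by 0.61 to 0.62 in CA3, and all of these passed. In CA1 Rab11b passed in Ts ChN (0.47) and Ts ChP (0.59), and not in 2N ChN (0.33, adjusted p = 0.087) or 2N ChP (0.28, adjusted p = 0.14).

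**Figure D3:**
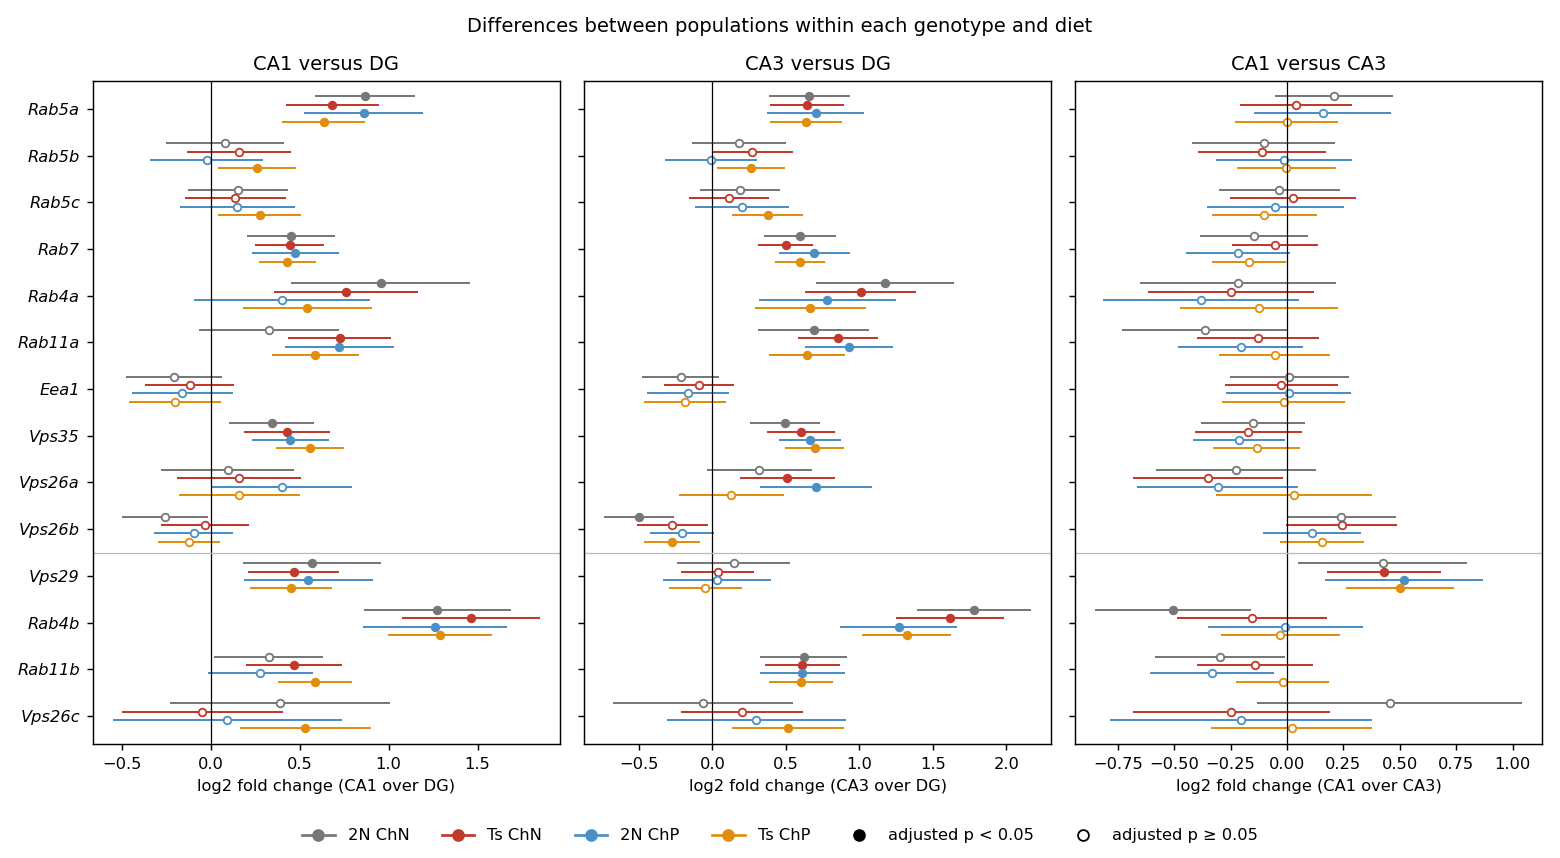
LFC with 95% intervals (x axis) between populations for the 10 members and, under the grey line, Vps29, Vps26c, Rab4b and Rab11b, in each genotype and diet. Values for CA1 and CA3 over DG sit mostly to the right of 0 and those for CA1 over CA3 lie nearer to 0, with no member past the adjusted test.

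The retromer core split by subunit. Vps35 rose from granule cells to pyramidal neurons, Vps26b fell in CA3, and Vps26a and Vps29 each had a pattern of its own. Vps35 in 2N ChP had 135, 153 and 170 CPM in CA1, 160, 176 and 186 in CA3 and 85.2, 108 and 121 in DG, with no overlap between DG and the pyramidal fields. Its LFC for CA3 over DG was 0.49 in 2N ChN, 0.60 in Ts ChN, 0.66 in 2N ChP and 0.70 in Ts ChP, and for CA1 over DG 0.34, 0.43, 0.45 and 0.56, all past the test. The 0.34 of 2N ChN had an adjusted p of 0.018 and was 0.27 (adjusted p = 0.071) without the CA2-rich libraries and 0.20 (adjusted p = 0.18) with scaling to library totals. Within mice, Vps35 was higher in CA1 than in DG in 25 of 27 and higher in CA3 than in DG in 25 of 26.

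Vps26b, the Vps26 subunit enriched in brain, was, with TMM scaling, the only member lower in CA3 PNs than in DGCs. In 2N ChN it had 82.7, 96.3 and 116 CPM in CA3, 114, 131 and 164 in DG, and 105, 109 and 131 in CA1. The highest CA3 library alone reached the DG range. The LFC of CA3 over DG was −0.50 ± 0.11 (SE, adjusted p = 5.1e-04) in 2N ChN and −0.28 ± 0.09 (adjusted p = 0.011) in Ts ChP. It was −0.27 (adjusted p = 0.051, and 0.038 with the mouse as a block) in Ts ChN and −0.21 (adjusted p = 0.12) in 2N ChP, and both of these passed with scaling to library totals (−0.45 and −0.43). Vps26b was higher in CA3 than in DG in 1 of 26 mice, and higher in CA1 than in CA3 in 24 of 25, although the LFC of CA1 over CA3 (0.11 to 0.24) passed in no group. Vps26a, its ubiquitous counterpart, went the other way, with an LFC for CA3 over DG of 0.71 in 2N ChP (adjusted p = 0.0018) and 0.51 in Ts ChN (adjusted p = 0.0071), and 0.32 and 0.13 in 2N ChN and Ts ChP, which did not pass. In 2N ChP Vps26a had 40.3, 49.2 and 62.0 CPM in CA3 against 12.9, 26.9 and 44.0 in DG. The Ts ChN value was 0.33 (adjusted p = 0.081) with scaling to library totals.

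**Figure D4:**
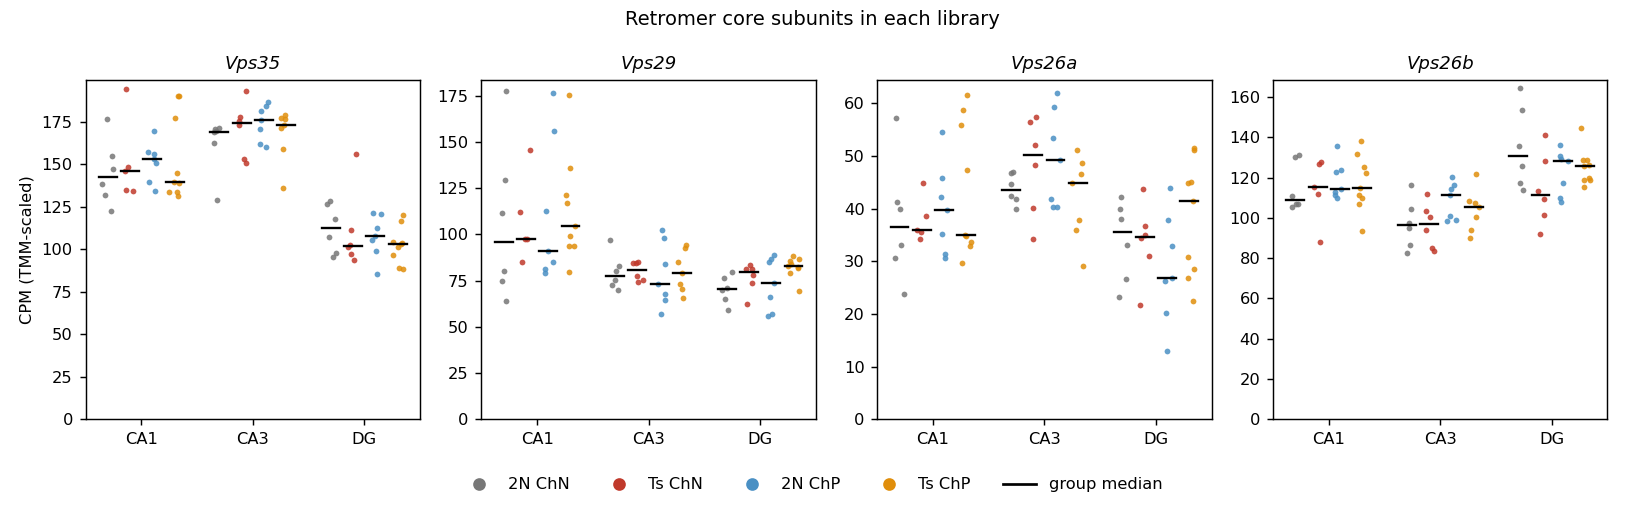
CPM (y axis, from 0) of the retromer core subunits Vps35, Vps26a, Vps26b and Vps29 in each library by population, coloured by genotype and diet. Vps35 is lowest in DG, Vps26b is lowest in CA3, and Vps29 spreads most in CA1.

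Vps29, the third retromer subunit and not among the members, was higher in CA1 than in DG in all 4 groups (LFC 0.45 to 0.57). It was also higher in CA1 than in CA3 in Ts ChN (0.43), 2N ChP (0.52) and Ts ChP (0.50), and these values rested in part on the CA2-rich libraries. In the 10 CA2-rich CA1 libraries Vps29 had 113, 141 and 178 CPM, and in the other 17 it had 64.2, 91.2 and 112, without overlap. Without the 10 libraries its LFC over DG was 0.20, 0.13 and 0.17 in 2N ChN, 2N ChP and Ts ChP, and it passed only in Ts ChN (0.33, adjusted p = 0.023). Over CA3 it was then 0.11 in 2N ChP and 0.22 (adjusted p = 0.12) in Ts ChP, which did not pass, and 0.29 (adjusted p = 0.047) in Ts ChN. Several members differed between the same sets of CA1 libraries, given as a description since the sets were formed after the data were seen. Vps35 had 135, 167 and 194 CPM in the CA2-rich libraries and 123, 139 and 170 in the others. Vps26a had 30.6, 49.7 and 61.6 against 23.9, 35.3 and 47.3 CPM, and Eea1 80.0, 98.7 and 128 against 51.9, 73.5 and 99.7 CPM. Rab11a had 65.0, 86.7 and 134 against 46.3, 67.8 and 109 CPM. Vps26b was lower there, at 88.1, 108 and 115 against 107, 124 and 138 CPM. Rab5a did not differ much, with medians of 76.3 and 73.8 CPM. For each of these members the ranges of the sets overlap.

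Leaving out the CA2-rich libraries also brought some members past the test between CA1 and CA3, where none had passed with them. In 2N ChN these were Rab7 (LFC −0.32, adjusted p = 0.018) and Rab11a (−0.60, adjusted p = 0.0060). In Ts ChN they were Vps35 (−0.28, adjusted p = 0.033), Vps26a (−0.42, adjusted p = 0.0497) and Vps26b (0.32, adjusted p = 0.024), and in Ts ChP Vps35 (−0.32, adjusted p = 0.0044) and Vps26b (0.26, adjusted p = 0.034). In 2N ChP none passed. The CA1 libraries not rich in CA2 markers thus had less Vps35 and more Vps26b than CA3 in both Ts groups. The 2N groups had the same directions without passing, with Vps35 at −0.24 in ChN and −0.19 in ChP. Vps26b was at 0.28 in 2N ChN and 0.16 in 2N ChP, and a difference between genotypes in this was not tested.

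Around the members, 7 lists of genes of the same route were read, 122 genes in all. For CA3 over DG in 2N ChN, 36 of 118 tested were higher and 12 lower, with a median LFC of 0.18 against −0.04 for all genes, of which 43.7% were called and 21.9% higher. In the other groups 30 to 41 were higher and 11 to 15 lower, against 40.4% to 44.5% of all genes called. The recycling list held 8 higher and 2 lower of 17 in 2N ChN (Rab4b and Rab11b among them), and the Rab5 activators and effectors 7 higher and 4 lower of 17. The ESCRT list, whose proteins sort cargo into the endosome lumen, had 5 higher and 1 lower of 25 in 2N ChN and 10 higher and 3 lower in Ts ChN. Of the retriever and COMMD genes, which serve a recycling complex parallel to retromer, 0 of 15 passed in 2N ChN and 1 to 3 in the other groups. Retromer partners and cargo receptors had 9 higher and 2 lower of 21 for CA1 over DG in 2N ChN, and the background for all genes was 34.3%. Vps29 was among the 9, and its call was lost without the CA2-rich libraries (LFC 0.20, adjusted p = 0.30, edgeR).

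Genotype made little difference to the members that these libraries could resolve. Ts was compared with 2N within each population and diet, and a difference was called at an unadjusted p under 0.05, the threshold used in the study. Of 60 tests 2 passed it, and the lowest adjusted p was 0.47. LFCs ran from −0.25 to 0.43, and the 95% intervals reached between 0.16 and 0.53 to either side of the estimate (median 0.27). Differences of this size or smaller could be missed at this depth and number of mice. On the normal diet 0 members passed in CA1 (3.77% of all genes), 0 in CA3 (9.2%) and 1 in DG (8.5%). On the supplemented diet 0 passed in CA1 (3.6%), 0 in CA3 (4.99%) and 1 in DG (7.6%). These shares are within the background.

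The member that passed in DG on the normal diet was Vps26b, which fell. Its lowest, median and highest CPM were 92.2, 111 and 141 in Ts and 114, 131 and 164 in 2N, with overlapping ranges. The LFC was −0.25 with a 95% interval from −0.46 to −0.05 (adjusted p = 0.47, edgeR). The call was lost with 1 surrogate variable in the fit and when any of 3 mice was left out. On the supplemented diet its LFC in DG was 0.01. The member that passed there was Rab7, which rose, from 111, 129 and 133 CPM in 2N to 115, 143 and 166 in Ts (LFC 0.20, interval 0.02 to 0.38, adjusted p = 0.57, edgeR). Most of the Ts libraries stood above every 2N library, but the lowest lay within the 2N range. In DG on the normal diet the LFC of Rab7 was 0.08 (interval −0.11 to 0.27).

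Rab5 genes and Eea1 gave no difference by genotype. In CA1 PNs on the normal diet, Rab5a had 72.5, 83.2 and 92.5 CPM in 2N and 62.2 to 91.5 in Ts, an LFC of −0.11 (interval −0.40 to 0.17). Over the 6 comparisons Rab5a lay between −0.11 and 0.13, Rab5b between −0.14 and 0.13, Rab5c between −0.09 and 0.08 and Eea1 between −0.20 and 0.01. The lowest Eea1 value was that of DG on the normal diet (interval −0.41 to 0.01). Vps35 stayed between −0.09 and 0.08, the narrowest range of the retromer members, and its intervals in CA3 ran from −0.09 to 0.26 on the normal and from −0.22 to 0.11 on the supplemented diet.

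Rab11a in CA1 PNs on the normal diet depended on which libraries were read. It had 62.4, 73.8, 81.7, 97.5 and 109 CPM in the 5 Ts libraries, and 46.3, 61.1 and 93.9 in 2N. The LFC was 0.34 (interval −0.05 to 0.73) and did not pass. It passed the unadjusted threshold without the CA2-rich libraries (0.50, adjusted p = 0.41), without mice 17-21 and 17-154, whose CA1 libraries are both rich in CA2 markers (0.57, adjusted p = 0.50), and with scaling to library totals (0.40). Both sets of libraries left out include the CA1 library of mouse 17-154, labelled 2N, whose triplicated genes averaged 6.33 log2 CPM. That lies within the Ts range of 6.13 to 6.61. The parts of its genotype label and of its CA2 markers in this change were not tested. On the supplemented diet the LFC of Rab11a in CA1 was 0.13 (interval −0.17 to 0.43).

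**Figure D5:**
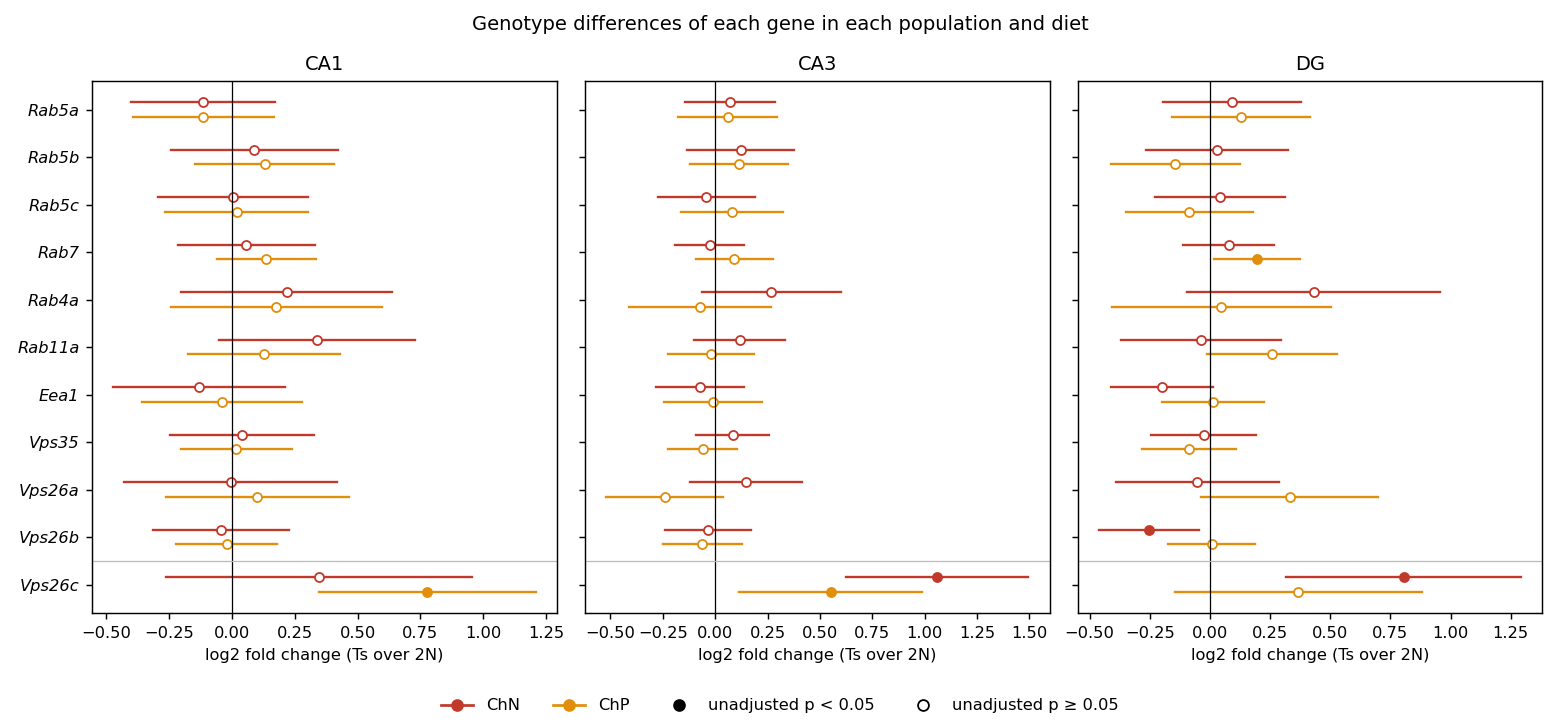
LFC of Ts over 2N with 95% intervals (x axis) for the 10 members and, under the grey line, Vps26c, by population and diet. Nearly all member intervals cross 0, while Vps26c, a gene of the triplicated segment, lies to the right.

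Vps26c, the Vps26-like subunit of retriever, lies on the triplicated part of chromosome 16 (chr16:94298587-94327743). In CA3 on the normal diet it had 7.90, 9.66 and 16.1 CPM in 2N and 14.6, 23.1 and 32.2 in Ts, with an LFC of 1.06 ± 0.22 (SE, adjusted p = 0.0037, edgeR). It also passed the unadjusted threshold in DG on the normal diet (0.80 ± 0.24), and on the supplemented diet in CA1 (0.78 ± 0.21) and CA3 (0.55 ± 0.22). It did not pass in CA1 on the normal diet (0.35), where the library labelled 2N of mouse 17-154 had 28.1 CPM, above all 5 Ts libraries, nor in DG on the supplemented diet (0.37). Without the CA2-rich libraries, which include that one, Vps26c passed the unadjusted threshold in CA1 on the normal diet (0.61, adjusted p = 0.67) and on the supplemented diet (0.64, adjusted p = 0.61).

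Of the genes around the members, those past the unadjusted threshold on the normal diet were 1 higher and 1 lower of 117 in CA1 (3.77% of all genes), 5 and 1 of 118 in CA3 (9.2%) and 3 and 6 of 117 in DG (8.5%). On the supplemented diet they were 1 and 0 in CA1 (3.6%), 3 and 1 in CA3 (4.99%) and 2 and 5 in DG (7.6%). In CA1 on the normal diet these were Vps4a, the ATPase that disassembles ESCRT (LFC −0.35 ± 0.12, SE), and Chmp5 (0.39 ± 0.18), of which Chmp5 did not pass without the CA2-rich libraries (0.25). In CA3 on the same diet Rab8b, a GTPase of traffic to the surface, had 0.48 ± 0.17 and Appl2, a Rab5 effector, 0.45 ± 0.20. In DG the sorting receptor Sorl1, a retromer cargo that binds APP, was lower on the normal diet (−0.23 ± 0.07, adjusted p = 0.11) and on the supplemented diet (−0.14 ± 0.06, adjusted p = 0.58), in separate mice. Snx27, which links retromer to recycling cargo, was lower in CA3 on the supplemented diet (−0.27 ± 0.10), and in DG on that diet Rab21 was higher (0.37 ± 0.14) and Washc1, of the WASH complex that retromer recruits, lower (−0.38 ± 0.18). All genes named in this paragraph so far passed the unadjusted threshold, with adjusted p of 0.11 or more. The counts above also include the triplicated Vps26c, in CA3 and DG on the normal diet and in CA1 and CA3 on the supplemented diet. It was the only gene called in CA1 on the supplemented diet.

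Maternal diet was compared within each genotype and population. In 60 tests 1 passed the unadjusted threshold. It was Rab4a in 2N DG, with 4.87, 11.2 and 15.7 CPM in ChN and 8.19, 12.3 and 23.7 in ChP, an LFC of 0.58 (interval 0.06 to 1.11) where 5.82% of all genes passed. These values rest on 4 to 24 reads a library, and the ranges overlap. After all libraries were thinned to an equal depth the LFC was 0.43 and did not pass. No member passed in CA1 or CA3 of 2N mice (3.27% and 4.9% of all genes) or in CA1, CA3 or DG of Ts mice (3.05%, 4.19% and 3.81%). In a model with both terms, the genotype difference changed with diet for 0 of 10 members in CA1 (3.22% of all genes), CA3 (4.87%) and DG (3.97%). Nearest was Vps26a in CA3 (difference of LFCs −0.38 ± 0.19, SE), whose genotype LFC was 0.15 on the normal diet and −0.24 on the supplemented one. On the normal diet the genotype LFC of the members was also compared between populations, and 0 of 30 differences passed (4.22% of all genes for CA1 against CA3, 5.51% for CA1 against DG and 5.18% for CA3 against DG). The widest was that of Rab11a, with an LFC higher by 0.38 in CA1 than in DG.

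In DG of Ts mice 5 of 118 surrounding genes were higher on the supplemented diet and 1 lower, where 3.81% of all genes passed. Among them were Osbpl1a, a Rab7 effector (LFC 0.65 ± 0.20, SE), and Snx2, a sorting nexin that works with retromer (0.33 ± 0.15), and Mon1a, part of the Rab7 exchange factor, was the lower one (−0.65 ± 0.24). In DG of 2N mice Washc1 was higher by 0.51 ± 0.20 and Vps39, of the HOPS tethering complex, by 0.29 ± 0.13. In CA1 of Ts mice Snx3, a retromer adaptor, was higher by 0.25 ± 0.11, and its diet LFC differed between genotypes by 0.34 ± 0.16. Neither passed without the CA2-rich libraries (0.25 and 0.29). With all libraries each of these values passed the unadjusted threshold, with adjusted p of 0.75 or more.

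Across the 12 groups of population, genotype and diet, the genes with a mean log2 CPM pattern most like that of Rab5a, out of 3930 genes with a mean of at least 50 CPM, were Stx7 (Pearson r = 0.991), Samd5 (0.983) and Hprt1 (0.983). For Rab7 they were Slc3a2 (0.987), Hars1 (0.985) and Necap1 (0.984), and for Vps35 Smim13 (0.993), 9530059O14Rik (0.992) and Gsk3b (0.992). The 12 points fall by population and share mice across populations, so these values mostly describe the step between DG and the pyramidal fields.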

How the data were processed

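Expected counts per gene were deposited by the authors for each library and as 1 matrix per population. They had trimmed reads with Trimmomatic 0.39, aligned them with STAR and counted with RSEM (Gencode, GRCm39, per the labels and the study's methods). FastQC 0.11.9 and Picard 2.26.2 are named in the submitters' notes, which also list mm10. Libraries were stranded total RNA from laser-captured cells, and 1 CA1 Ts ChN sample had been removed by the authors. Here expected counts were rounded (2.82% of those above 0 were fractional) and fitted with edgeR 4.0.16 (quasi-likelihood, TMM) in R 4.3.3 on genes over 0.1 CPM in at least 10 libraries, which is the study's filter. TPM and FPKM values in the library files, also made by the authors with RSEM, were not used here, and effective gene lengths were. The study's covariates (RNA concentration and Picard metrics) were not used here. CPM were TMM-scaled over all libraries, and log2 values used a prior count of 2. Alternatives were limma 3.58.1 (voom), DESeq2 1.42.0, 1 surrogate variable (sva 3.50.0), other scalings and filters, thinning, and leaving out libraries. The model steps were tested on simulated data.

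Genotype and diet comparisons use an unadjusted p under 0.05 and population comparisons an adjusted one. Libraries of the same mouse, identified by the mouse in the labels, are paired across populations: over 7647 genes the median correlation of their deviations was 0.10 (78 pairs) against −0.003 for 2108 pairs of different mice. Replicates are separate mice. The members and lists were chosen with earlier results of these data known. Named were the 10 members, Vps29, Vps26c, Rab4b and Rab11b, and from each list up to 3 genes with the smallest p under 0.05 in a genotype or diet comparison. Not every gene this rule gives is reported here. Promoters came from RefSeq (GRCm38.p6).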

Additional observations from a re-analysis of the deposited data

Results flagged for a closer look

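In each group of 5 to 9 libraries the highest and the lowest CPM of each member was set against the gap that separates it from the rest (Dixon's 95% criterion). Of 120 sets of a member and a group 7 were past it, and chance flags about 1 in 20. In CA1 they were Rab7 in Ts ChP (mouse 15-199, 225 CPM, with the others at 181 to 202), Rab11a in the same library (134 CPM, others 53.4 to 86.9), Rab4a in 2N ChP (mouse 15-336, 36.8 CPM, others 15.2 to 22.8) and Vps35 in Ts ChN (mouse 16-357, 194 CPM, others 135 to 149). All 3 of these CA1 libraries are among the 10 that were rich in CA2 markers. In CA3, Vps35 was lowest in the 2N ChN library of mouse 17-154 (129 CPM, others 162 to 171). In DG, Vps35 was highest in the Ts ChN library of mouse 17-153 (156 CPM, others 93.6 to 111) and Vps26b in the Ts ChP library of mouse 15-199 (145 CPM, others 115 to 129).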

How the results depend on the processing

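Depth limits Rab4a and Vps26c most, since some of their libraries hold under 10 reads, and each mouse gave 1 library per population, so p-values measure the spread between mice with its technical part. The alternative without the 10 CA2-rich CA1 libraries was chosen after seeing the data. Counts of members called stayed within 1.5 times the reported count in 331 of 363 recomputations. Many of the reported counts were 0, and such a count stayed only where it was 0 again. Which members made up a count is not part of this figure.

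In CA1 on the normal diet the count of members differing by genotype was 0. It was 1 with scaling to library totals, with no filter and with 1 surrogate variable, 2 without the CA2-rich libraries (Rab7 0.24 and Rab11a 0.50), 1 without mice 17-21 and 17-154, and 0 to 1 when single libraries were left out. For the diet comparison in 2N CA1 it was 1 without the CA2-rich libraries and 1 without those mice (Rab11a 0.43 and 0.44), and for the change of genotype difference with diet in CA1 it was 1 without the CA2-rich libraries (Rab11a −0.59). The genotype count in CA3 on the normal diet was 0 to 1 when single libraries were left out. In CA3 the diet count was 1 in 2N with the library of mouse 15-145 read as Ts (Vps26b 0.21) and 1 in Ts with 2 groups in the fit (Rab7 0.16), and the combined term gave 1 (Vps26a) with DESeq2, with library totals and with a stricter filter. In DG the genotype count was 0 to 2 on the normal diet when single libraries were left out (Vps26b was lost without mouse 17-153, 15-145 or 15-147), 2 on the supplemented diet with no filter, 0 for diet in 2N and 1 for the combined term (Rab11a 0.66) with thinned libraries. Vps29 turned from −0.01 to 0.38 for Ts over 2N in CA1 on the normal diet without mice 17-21 and 17-154.

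Between CA1 and CA3 the count of 0 became 2 without the CA2-rich libraries, 2 without mice 17-21 and 17-154 and 0 to 1 with single libraries left out in 2N ChN, 1 with library totals and 3 without the CA2-rich libraries in Ts ChN, and 2 without them in Ts ChP. CA1 versus DG in 2N ChN gave 3 to 5 members and CA3 versus DG 6 to 6 with single libraries left out. Vps35 was the member of 2N ChN that left the CA1 versus DG calls without the library of mouse 17-154 (LFC 0.29) or 17-21 (0.24). The difference of genotype LFCs between CA1 and CA3 and between CA1 and DG gave 1 member each without the CA1 libraries of mice 17-21 and 17-154. The cause of these changes was not tested.

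With the mouse as a replicate block, the pairing left the counts at 0, 4 and 6 in 2N ChN (CA1 versus CA3, CA1 versus DG, CA3 versus DG) and 0, 4 and 6 in 2N ChP, and gave 0, 5 and 7 in Ts ChN and 0, 6 and 8 in Ts ChP. It added Vps26b for CA3 versus DG in Ts ChN (−0.27, adjusted p = 0.038), and dropped Rab5b for CA1 versus DG (0.26, adjusted p = 0.055) and Vps26c for CA3 versus DG (0.43, adjusted p = 0.064) in Ts ChP. No other call of the members, Vps29, Vps26c, Rab4b or Rab11b changed under the block, and the genotype LFCs between populations gave 0 calls. Of the single values, 5586 kept their side of the threshold, 76 passed it, 308 fell short of it and 1 reversed.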
